A study of Drosophila melanogaster with 6 samples.

Results

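Larval cuticle was followed here through 4 genes, the cuticle protein genes Cpr49Ag, Cpr97Eb and Acp65Aa and the chitin-binding protein gene obst-B. The genes were chosen with earlier results of these data known. Their probes were found by name: every gene probe whose identifier is a RefSeq accession, symbol or synonym of one of the genes was taken. Each gene was found by 1 probe, Cpr49Ag and Cpr97Eb by accession and Acp65Aa and obst-B by the name of a cDNA clone. They are 4 of the 338 features with a gene symbol among the 18780 features tested. In the RefSeq gene table Cpr49Ag lies on chromosome arm 2R, Cpr97Eb on 3R, Acp65Aa on 3L and obst-B on 2L.

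RNA from whole Oregon-R larvae, a wild-type strain of Drosophila melanogaster, was labelled with Cy3 and hybridised to one-colour Agilent microarrays. The 3 control arrays hold larvae at 0 Gy. The 3 irradiated arrays hold larvae that received chronic gamma rays from the first instar on, to a dose of 0.1 Gy at 16.7 mGy/h, which takes 5.99 h. The labelled age is the same in both groups, 5-day. Separate vials for the replicates are not stated, so the spread behind each p-value is that of these samples and may be technical.

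Insect cuticle is a secreted layer of chitin fibres embedded in protein, laid down by the epidermis and renewed at each moult. Proteins of the Cpr family bind chitin through the Rebers and Riddiford consensus sequence, whereas proteins of the obstructor family, to which obst-B belongs, bind it through domains of the peritrophin type. Pulses of the steroid hormone ecdysone time the moults, and many cuticle protein genes are switched on for only a part of each moulting cycle. By its name, Acp65Aa is an adult cuticle protein gene, unlike the larval setting in which it was measured here.

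All 4 genes gave a measurable signal on every array. Their spots were well above background on all 6 arrays, none was saturated and none carried an outlier flag. Cpr49Ag was bright, with a signal between 23.4 and 31.0 times the 75th percentile of the gene spots of its array, and ranked between 489 and 623 among the 18780 features. The signal of obst-B was between 17.4 and 19.3 times that percentile, at ranks between 688 and 759. Cpr97Eb lay close to the percentile, at 1.07 to 1.48 times, and Acp65Aa lay near or below it, at 0.530 to 1.02 times. The probe of Acp65Aa, the gene named for adult cuticle, thus gave a signal in these larvae, with a raw spot signal between 27 and 46.9 times the local background. This rests on 1 spot of 1 probe matched by a clone name, and whether the probe also binds related transcripts was not tested. A rank describes brightness on the array and not the number of transcripts, since each probe binds with its own strength.

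No difference between irradiated and control larvae passed the test for any of the 4 genes. Cpr49Ag and Cpr97Eb were measured lower in irradiated larvae, at 0.881 and 0.876 of the control level, and Acp65Aa and obst-B higher, 1.22-fold and 1.06-fold. In limma, 0 of the 4 had an adjusted p under 0.05 or an unadjusted p under 0.05. The same fit called 0 of the 18780 features after adjustment (0.0%), while 1864 (9.93%) had an unadjusted p under 0.05. The 2 genes measured higher stand beside 49.5% of all features with a difference above 0, and none of the 4 differed by 2-fold or more, as 0.714% of features did. In whole larvae, a change in the number of cuticle-making cells and a change in RNA per cell could not be told apart.

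**Figure D1:**
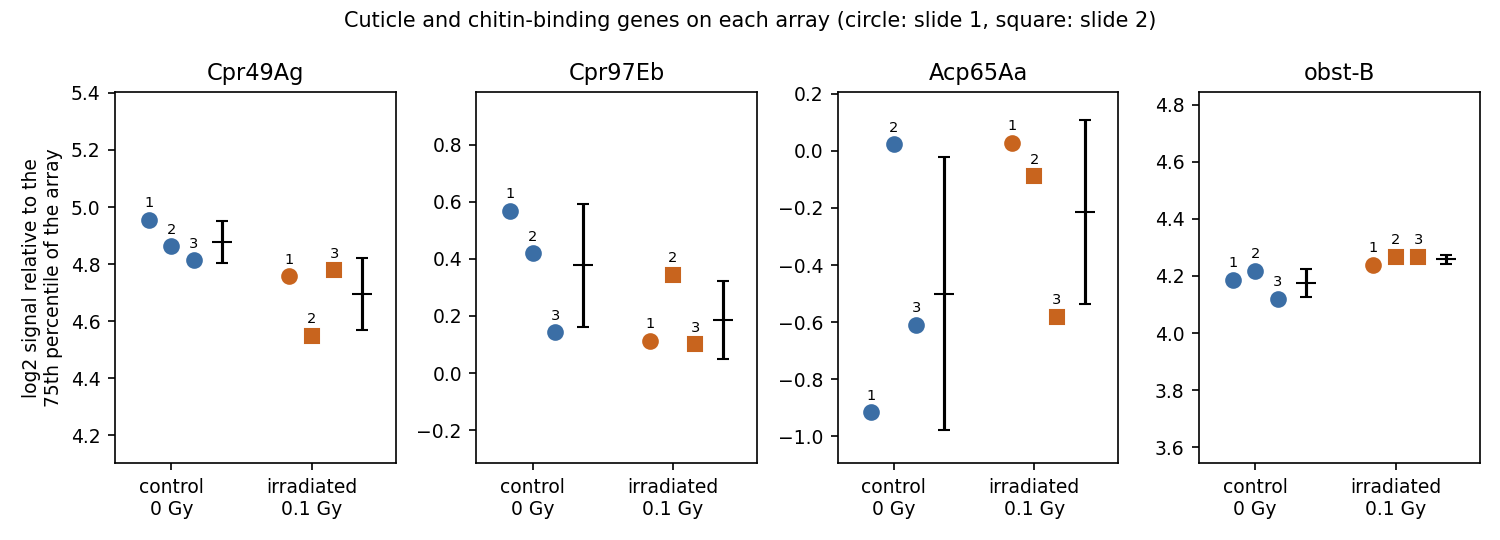
Log2 signal of each gene relative to the 75th percentile of the array (vertical axes, all spanning the same number of log2 units) on the control and irradiated arrays, numbered by replicate, with the mean and SD of each group in black (n = 3). Circles lie on slide 1 and squares on slide 2. Acp65Aa ranges from -0.92 to 0.03, and obst-B only from 4.12 to 4.27.

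Among the structural cuticle proteins, Cpr49Ag encodes a chitin-binding protein of the Cpr family. In log2 units relative to the 75th percentile of the array, the control arrays 1 to 3 read 4.96, 4.86 and 4.81, and the irradiated arrays 1 to 3 read 4.76, 4.55 and 4.78. Each irradiated array lay below each control array, with a gap of 0.035 between the groups. Control 1 was the highest and irradiated 2 the lowest. The group means were 4.88 ± 0.072 (SD, n = 3) and 4.70 ± 0.13 (SD, n = 3). The difference of -0.18 ± 0.083 (SE, 95% interval from -0.39 to 0.024) did not pass in limma (adjusted p = 0.547). Groups without overlap were found for 17.4% of all features, with all irradiated arrays below in 9.15% and above in 8.23%. Among the 4 genes there was 1 of each kind, Cpr49Ag below and obst-B above. An exact permutation test of 3 against 3 arrays cannot go below 0.1, which is the two-sided value for Cpr49Ag.

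The low value of Cpr49Ag in irradiated 2 came from 1 of its 2 spots. The probe is printed in 2 places on each array, and in irradiated 2 the first spot read 4.34 and the second 4.76. In the other arrays the spots lay between 0.012 and 0.13 apart, against 0.42 in irradiated 2. On that array, 96.3% of the 8320 probes with several spots had a smaller SD between spots than the 0.298 of Cpr49Ag, and the median SD there was 0.045. With the first spot alone the difference between the groups was -0.22, and with the second spot alone it was -0.14. The groups did not overlap with either spot (exact permutation p = 0.1 for each, n = 3 per group). With the second spot, the lowest control, control 3, read 4.77 and the highest irradiated array, irradiated 2, read 4.76. Irradiated 2 was therefore the lowest of the 6 arrays by the first spot and not by the second, where irradiated 1 was lowest at 4.69. Without irradiated 2 the difference was -0.11. In the deposited value table, which gives each probe relative to its median over the arrays, irradiated 2 was not low for Cpr49Ag (1.01). In that table, whose array scaling is not stated, irradiated 2 was the highest array for Cpr97Eb (1.22), Acp65Aa (1.34) and obst-B (1.25).

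**Figure D2:**
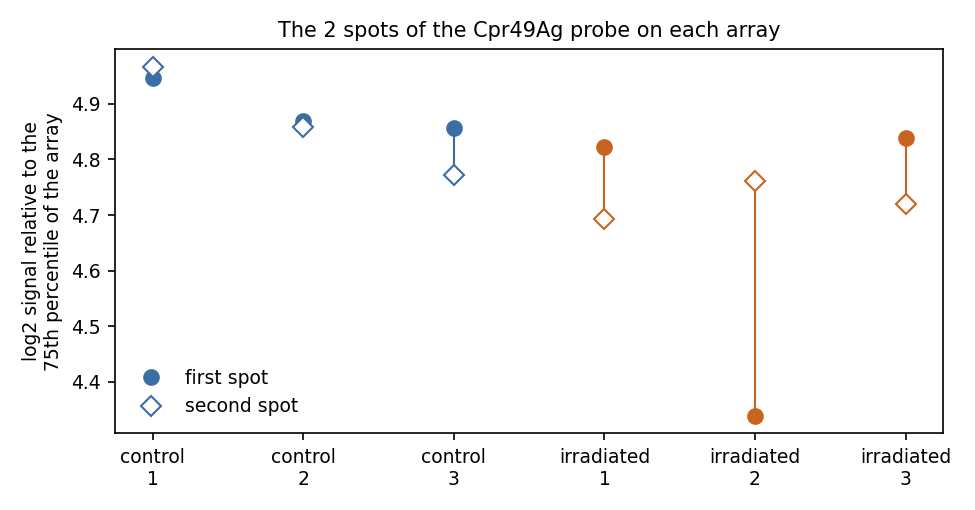
Log2 signal relative to the 75th percentile of the array (vertical axis) for the first spot (filled circle) and second spot (open diamond) of the Cpr49Ag probe on each of the 6 arrays, blue for control and orange for irradiated. The spots lie 0.42 apart on irradiated 2 and at most 0.13 apart on the others.

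Cpr97Eb, another chitin-binding member of the Cpr family, had control levels of 0.57, 0.42 and 0.14 (arrays 1 to 3) and irradiated levels of 0.11, 0.34 and 0.10. The groups overlapped, since irradiated 2 lay above control 3. Means were 0.38 ± 0.22 in controls and 0.19 ± 0.14 in irradiated larvae (SD, n = 3 each). The difference was -0.19 ± 0.13 (SE, 95% interval from -0.52 to 0.14, limma adjusted p = 0.688). Its size depended on single control arrays, at -0.095 without control 1 and -0.31 without control 3.

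Acp65Aa, a structural protein first known from adult cuticle, varied most of the 4 between arrays. Its control levels were -0.92, 0.02 and -0.61 (arrays 1 to 3), and its irradiated levels 0.03, -0.09 and -0.58. Low and high arrays occurred in both groups, with control 1, control 3 and irradiated 3 on the low side. The means were -0.50 ± 0.48 and -0.21 ± 0.32 (SD, n = 3 each), and the difference of 0.29 ± 0.29 (SE) was as large as its own standard error (limma adjusted p = 0.798). Its 95% interval, from -0.43 to 1.00 log2 units, runs from 0.745 to 2.00-fold. An observed difference would have had to pass 0.71 log2 units, or 1.64-fold, for an interval of that width to leave out 0. Leaving out control 1 reduced the difference to 0.079, leaving out irradiated 1 gave 0.17, and leaving out control 2 or irradiated 3 gave 0.55 or 0.47.

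The chitin-binding protein gene obst-B varied least of the 4 within groups on the scanner signals, at an SD of 0.037 log2 units against 0.10 for Cpr49Ag. In the deposited value table that order turned, with 0.15 for obst-B and 0.069 for Cpr49Ag. The levels were 4.19, 4.22 and 4.12 on control arrays 1 to 3, against 4.24, 4.27 and 4.27 on irradiated arrays 1 to 3. Each irradiated array lay above each control array, with a gap of 0.021 between the groups. The means were 4.18 ± 0.050 and 4.26 ± 0.016 (SD, n = 3 each), and the difference of 0.083 ± 0.050 (SE, 95% interval from -0.041 to 0.21) did not pass in limma (adjusted p = 0.647; exact permutation p = 0.1). The gap is smaller than the median SD between spots of one probe on an array, which lay between 0.045 and 0.047 over the 6 arrays. The gap of 0.035 for Cpr49Ag is smaller than that median SD too. When each array was scaled by its median in place of the 75th percentile, the groups of obst-B overlapped, and the gap of Cpr49Ag was only 2.4e-05. When the deposited value table was used, the groups of both genes overlapped.

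**Figure D3:**
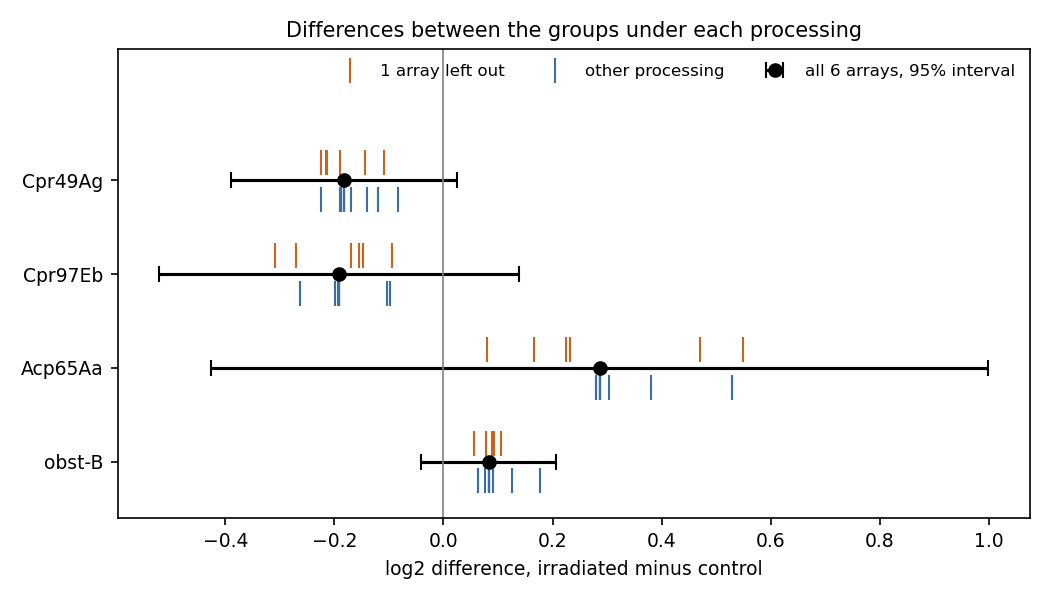
Log2 difference, irradiated minus control (horizontal axis), for each gene with its 95% interval from limma (black), the values with 1 array left out (orange ticks) and under the other processing settings, single spots of Cpr49Ag included (blue ticks). All 4 intervals include 0, and the ticks of each gene stay on 1 side of 0. Settings that changed only which probes were used, and the replicate block, repeat the black value.

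Slide and group are partly confounded. Slides were told apart by a barcode in the names of the scans. The controls and irradiated 1 share slide 1, and irradiated 2 and 3 lie on slide 2. On slide 1 alone, irradiated 1 differed from the mean of the controls by -0.12 for Cpr49Ag, -0.26 for Cpr97Eb, 0.53 for Acp65Aa and 0.064 for obst-B. The directions were those of the whole set, and the values with slide as a fixed block are the same. In both, the irradiated side rests on irradiated 1 alone, which is assumed to vary like the other arrays, so these values are given as a description and leave the part of the slide untested.

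Arrays of the same group differed to unlike degrees from gene to gene. The highest control stood above the lowest 1.92-fold for Acp65Aa, 1.34-fold for Cpr97Eb, 1.1-fold for Cpr49Ag and 1.07-fold for obst-B. Among the irradiated arrays the ratios were 1.52, 1.18, 1.17 and 1.02 in the same order. The SD between arrays of one group, pooled over both groups, was 0.41 log2 units for Acp65Aa, larger than that of 89.3% of all features. It was 0.18 for Cpr97Eb (68.3% of features smaller), 0.10 for Cpr49Ag (45.3%) and 0.037 for obst-B (6.01%), and the median feature had 0.11. Acp65Aa thus lay in the upper part of the distribution, below its 95th percentile of 0.645, and obst-B in the lower part. Cpr49Ag was averaged over 2 spots per array, whereas Acp65Aa, Cpr97Eb and obst-B had 1 spot each. For those with 1 spot, spread between spots cannot be told from spread between arrays.

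**Figure D4:**
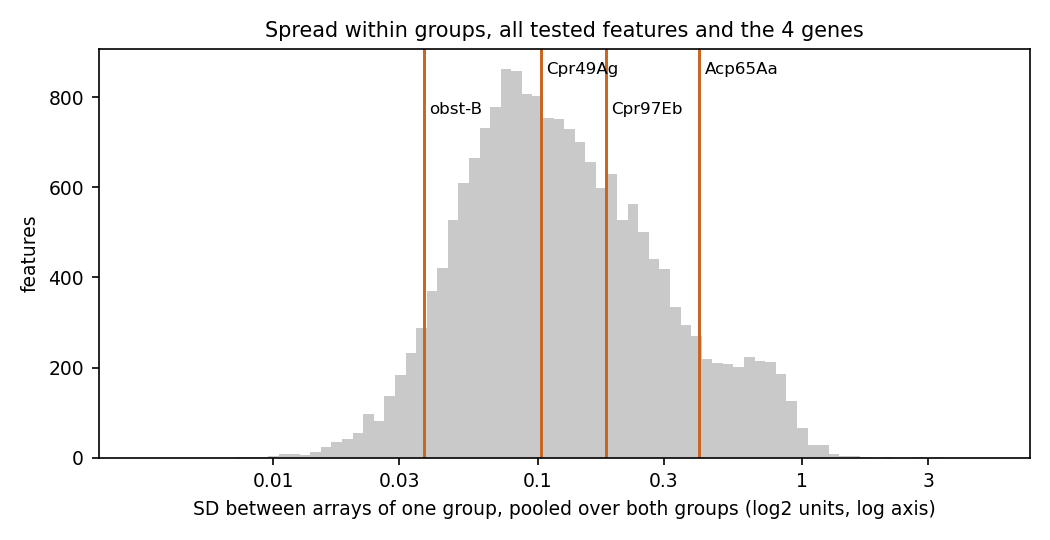
Number of features (vertical axis) by the SD between arrays of one group, pooled over both groups, in log2 units on a log axis, for all 18780 features, with orange lines for the 4 genes. obst-B at 0.037 lies in the lower tail and Acp65Aa at 0.41 in the upper part of the distribution.

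Genes that mark moulting stage could be set beside this spread only in part. From the list of ecdysone synthesis and response genes, 2 of 47 were tested under a symbol. ImpE3, an ecdysone-inducible gene, ranged from -5.24 in irradiated 2 to -4.85 in irradiated 1. Blimp-1, a transcriptional repressor induced by ecdysone, ranged from -4.79 in control 1 to -4.35 in control 3, which were the lowest and second lowest arrays for Acp65Aa. The tanning list had 1 of 28 tested, ple, which encodes the tyrosine hydroxylase that starts the synthesis of cuticle pigments and cross-linkers. It was lowest in irradiated 3 at -5.65 and highest in control 3 at -5.09. These 3 genes were dim, with only 11.8% to 27.3% of features dimmer on any array. Between the groups, ImpE3 differed by -0.079 ± 0.11, Blimp-1 by 0.0023 ± 0.13 and ple by -0.13 ± 0.16 (SE), and 0 of these passed in limma. None of the 12 salivary glue genes or the 6 genes of the larval fat body was tested under a symbol. The dosage compensation RNAs of males, lncRNA:roX1 and lncRNA:roX2, were lowest in irradiated 1, at 0.48 and -2.42. Acp65Aa was highest in irradiated 1 and nearly as high in control 2, where lncRNA:roX1 was highest at 1.73. lncRNA:roX2 was nearly as low in control 3, at -2.40, where Acp65Aa was low at -0.61. The pooled SD within groups was 0.55 for lncRNA:roX1 and 0.54 for lncRNA:roX2, larger than that of 93.0% and 92.7% of features. Each of the 4 genes had a smaller SD, with Acp65Aa at 0.41. Both roX RNAs were measured lower in irradiated larvae (median -0.13) and 0 of 2 passed. Whether stage or sex makeup of the samples had a part in the spread of the 4 genes was not tested.

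The 4 genes did not follow a shared order over the arrays. Of the 6 pairs, the highest Pearson correlation over the 6 arrays was 0.47 for Acp65Aa with obst-B (exact permutation p = 0.364, Spearman's rho 0.43 with p = 0.419). The lowest was -0.54 for Cpr49Ag with obst-B (exact permutation p = 0.217, rho -0.66 with p = 0.175). Group means were not removed for any pair. The opposite group differences of Cpr49Ag and obst-B are therefore part of their r. For Cpr49Ag with Acp65Aa r was also -0.54 (exact permutation p = 0.281, rho -0.54 with p = 0.297). The Cpr pair, Cpr49Ag with Cpr97Eb, gave r = 0.36 (exact permutation p = 0.472, rho 0.60 with p = 0.242). Cpr97Eb gave r = -0.21 with Acp65Aa (exact permutation p = 0.672, rho -0.31 with p = 0.564) and -0.093 with obst-B (exact permutation p = 0.803, rho -0.54 with p = 0.297). No pair passed after adjustment over the 6 pairs, with adjusted p between 0.708 and 0.803 for Pearson and 0.446 and 0.564 for Spearman. Without the 2 arrays farthest from the median of the first gene, r became 0.39, -0.36, 0.16, 0.90, 0.41 and 0.27 in the order given, so the relation of Cpr49Ag with Acp65Aa and both of Cpr97Eb changed sign.

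Other named genes with a like pattern were sought among 334 genes by Pearson r over the 6 arrays. Closest to Cpr49Ag were slp1, a forkhead transcription factor gene (r = 0.90), CG12118 (0.89) and Dad, an inhibitor of BMP signalling (0.84). slp1 and Cpr49Ag put all 6 arrays in the same order (rho = 1.0). Closest to Cpr97Eb were the ribosomal protein gene RpS7 (0.95), asRNA:CR43470 (0.90) and CR31032 (0.87). For Acp65Aa they were CG10494 (0.93), the digestive protease gene Jon65Aiii (0.92) and CG13160 (0.92), and for obst-B Rcd-1 (0.95), the DNA-binding factor gene retn (0.94) and CG15533 (0.94). These genes were picked for their r, and each value describes 6 points that share arrays and scaling. The range of Jon65Aiii over the arrays was only 0.060 log2 units, against 0.94 for Acp65Aa. All but slp1, retn and CG15533 ranged less than the gene they were picked for. Dad ranged over 0.082 against 0.41 for Cpr49Ag, and CR31032 over 0.11 against 0.47 for Cpr97Eb. The groups of slp1, Dad, Rcd-1, retn and CG15533 did not overlap, as for 17.4% of all features, so the group difference is part of their r. The probes of RpS7 and asRNA:CR43470 were dim, with 30.2% to 34.8% and 13.5% to 18.4% of features dimmer.

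The fixed lists of cuticle structural proteins and of chitin-binding and chitin metabolism genes held 178 genes, of which 5 were tested under a symbol. The only one besides the 4 genes was Cpr60D, a further Cpr family gene, which was brighter still, at ranks between 177 and 232. Controls 1 to 3 read 6.39, 6.43 and 6.21 and irradiated 1 to 3 read 6.28, 6.49 and 6.38, so the groups overlapped. Its difference was 0.039 ± 0.088 (SE, limma adjusted p = 0.943). Of the 5 genes, 3 were measured higher and 2 lower with a median of 0.039, beside 9288 of 18780 features higher and a median of -0.0018 over all features. None was called in either direction. The other listed genes may lie under identifiers without a symbol, so these values do not speak for the cuticle as a whole.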

How the data were processed

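Spot signals come from Agilent Feature Extraction, version 11.5.1.1 per the file headers and 9.1 per the submitters' processing notes. The deposited intensity used is the processed signal, which is background-corrected and not scaled between arrays. In the deposited value table each entry is a ratio to the median of its probe over the 6 arrays, judging by the values, and its array scaling is not stated. The labels' protocols describe steps for blood samples as well, and whether larvae went through them is not known.

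Control spots (1417 of 45019) and 44 to 113 outlier spots per array were left out. Each array's 75th percentile (1288 to 1607) was subtracted on the log2 scale and the spots of a probe were averaged. Between 75.8% and 81.1% of gene spots per array were well above background, and 3 arrays per group limit the precision. Of the probes, 23818 passed the filter, a share of 0.5 or more of spots above background on each array of a group. Probes of one gene or identifier were averaged, and 12 features lacked a value.

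Identifiers were matched to RefSeq accessions, symbols and synonyms, without the clone prefixes BcDNA and BEST. Of 32162 probes 549 matched 1 symbol, 3 several and 31610 none. Probes under FlyBase transcript identifiers (21498) were not named, and more probes of the 4 genes may be among them. Only names and chromosome arms were taken from RefSeq, whose assembly is newer than that of the array. No sequences were used here.

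Groups were compared with limma 3.58.1 in R 4.3.3 (lmFit, eBayes, two-sided, no block), with Benjamini-Hochberg adjustment over all features, and the procedure was tested on simulated data. Single values were tested by exact permutation in scipy 1.17.1. The genes named are the 4 genes, tested genes of the cuticle and chitin lists, up to 3 of smallest p from each other list, lncRNA:roX1 and lncRNA:roX2, and the 3 of highest r with each gene. The genes and lists were chosen with earlier results of these data known.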

Additional observations from a re-analysis of the deposited data

How the results depend on the processing

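Each of the 4 differences kept its direction under all alternatives run, and none passed the threshold in limma (lowest adjusted p 0.434, for obst-B with normexp). Each gene was found by 1 probe, so settings that changed only which probes were used could not move its difference. The replicate block could not move it either, since each replicate number occurs in both groups. Slide as a fixed block and slide 1 alone gave the same differences as each other. The single spots of Cpr49Ag were added after seeing the data. The count of features called was 0 in 16 of 17 alternatives and 7 with the deposited value table, and the cause was not tested. No cuticle or chitin gene was called in any. Features at an unadjusted p under 0.05 ranged from 763 to 2373. Sizes ranged from -0.22 to -0.084 for Cpr49Ag, -0.31 to -0.095 for Cpr97Eb, 0.079 to 0.55 for Acp65Aa and 0.056 to 0.18 for obst-B. Leaving out each array gave 0 to 0 called features and 0 to 0 called cuticle or chitin genes, and differences of -0.22 to -0.11, -0.31 to -0.095, 0.079 to 0.55 and 0.056 to 0.10. With normexp Cpr97Eb was at -0.10 and obst-B at 0.13. With the deposited table Cpr49Ag was at -0.084, Cpr97Eb at -0.098 and obst-B at 0.18, the spread of obst-B within groups was 0.15 against 0.037 (Cpr49Ag 0.069 against 0.10), and the median of all features moved from -0.0018 to 0.091. With that table the correlation of Cpr49Ag with obst-B turned to 0.19, that of Cpr97Eb with Acp65Aa to 0.14 and that of Cpr97Eb with obst-B to 0.41, the last also to 0.19 with the array median. The cause was not tested. The replicate numbers gave no evidence of pairing, as same-numbered arrays had deviations with correlations of -0.266, -0.202 and -0.601. The replicate block left the differences as they were and called 0 features, with adjusted p from 0.686 to 0.831 for the 4 genes and 1474 features at an unadjusted p under 0.05.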
